A study of Sus scrofa with 12 samples.

Results

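The enzymes that write and erase cytosine methylation were followed through 12 RNA-seq libraries of pig cells: DNMT1, DNMT3A, DNMT3B, DNMT3L, UHRF1, TET1, TET2 and TET3. They were found by gene symbol, and all 8 were present among the 30012 loci of the deposited expression table. TET1 was carried by 3 loci, of which the one with the highest mean level was used. The libraries came from parthenogenetic ESC line 3, parthenogenetic ESC line 7, IVF (in vitro fertilised) ESC line 11, and fetal fibroblasts, with 3 libraries in each group. The lines are called ESC3, ESC7 and ESC11 below.

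An embryonic stem cell (ESC) line is a self-renewing culture derived from an early embryo, and a parthenogenetic one comes from an activated egg that has no sperm genome. All 3 ESC lines grew on feeder cells in serum replacement medium that held the growth factors FGF2 (20 ng/mL) and ActA (activin A, 5 ng/mL) beside the small molecules CH (1.5 µM) and IWR-1 (2.5 µM), the last of which inhibits WNT signalling. The ESCs were enriched on magnetic columns for the surface antigen SSEA1 before RNA was taken, a step meant to leave out feeder and differentiated cells. The fibroblasts were isolated from a fetus at day 30 and used at passage 6, without that enrichment. Each ESC group is 1 line, so parthenogenetic origin rests on 2 lines and IVF origin on 1, and origin and line cannot be told apart. The labels do not tell whether libraries of a group are separate cultures, so a p-value here covers the spread between libraries and that spread may be technical.

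DNA methyltransferases place methyl groups on cytosine, chiefly at CpG sites. DNMT1, guided to newly replicated DNA by UHRF1, copies the existing pattern, while DNMT3A and DNMT3B set new marks, helped in mouse germ cells by DNMT3L, which has no catalytic activity of its own. The TET dioxygenases oxidise methylated cytosine, which can lead to its removal. In mouse, naive pluripotent cells carry little methylation, and the de novo enzymes are abundant in the primed epiblast that follows implantation.

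Levels are in FPKM (fragments per kilobase, scaled to the size of the library), so that levels of different genes are compared per length. They carry no depth, so their counting error cannot be estimated. Across loci, libraries of 1 group correlated at 0.980 to 0.985, libraries of different ESC lines at 0.950 to 0.963, and ESC with fibroblast libraries at 0.714 to 0.734. The marker genes went with the labels. The summed FPKM of 5 undifferentiated-cell markers (POU5F1, SOX2, NANOG, LIN28A and EPCAM) was 1875 to 2043 in ESC libraries and 0.0163 to 0.141 in fibroblast libraries, where EPCAM was listed at 0. The summed FPKM of 7 fibroblast markers was 19.3 to 36.9 in ESC libraries and 9345 to 9640 in fibroblast libraries. In bulk RNA, fewer cells of a type and less RNA per cell cannot be told apart.

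Within every ESC line DNMT3B was the most abundant of the 8 genes and DNMT3L the least. ESC3 ran DNMT3B, UHRF1, DNMT1, DNMT3A, TET1, TET3, TET2 and DNMT3L in falling FPKM, with no overlap between the libraries of neighbouring genes. ESC11 had the same order, except that the libraries of UHRF1 and DNMT1 overlapped. In ESC7 the libraries of DNMT1, DNMT3A and UHRF1 overlapped in the places below DNMT3B, and the remaining order was that of ESC3. Fibroblasts were led by DNMT1 and UHRF1, whose libraries overlapped, followed by DNMT3A, TET3, TET2, TET1, DNMT3B and DNMT3L. DNMT3B thus stood first of 8 in the ESC lines and next to last in fibroblasts, and among the TET genes TET1, read at the locus used, was the highest in ESCs and the lowest in fibroblasts. The last place depends on the locus: summed over its 3 loci, TET1 had 7.51 to 9.15 FPKM in fibroblasts, above TET3 and TET2 there.

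**Figure D1:**
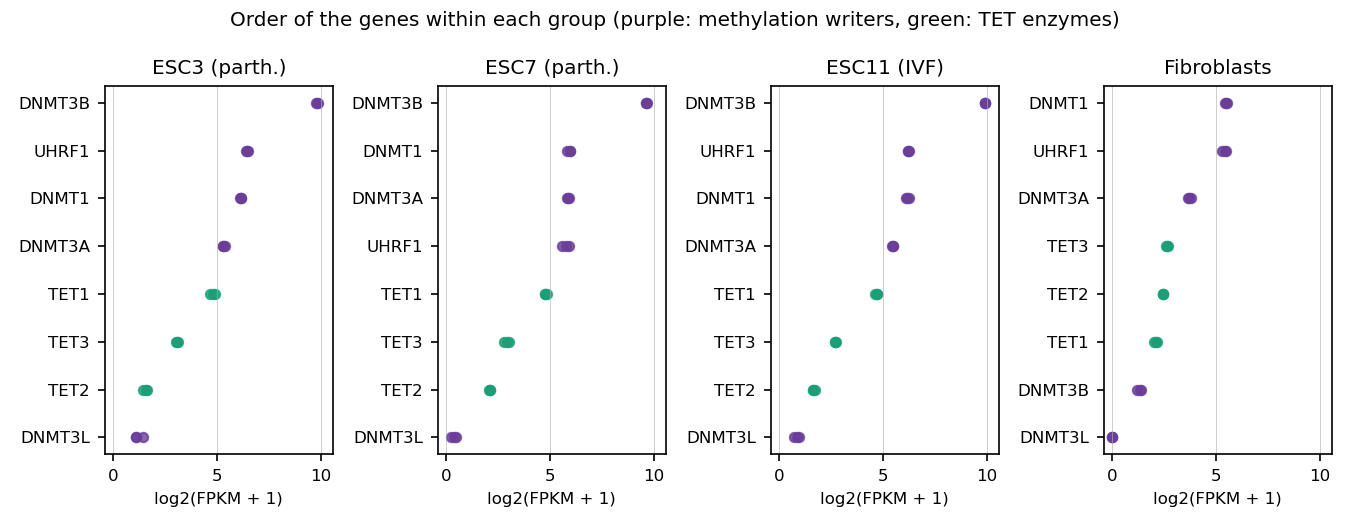
The 8 genes ranked by mean level in ESC3, ESC7, ESC11 and fibroblasts, with log2(FPKM + 1) on the horizontal axis and 1 point per library. DNMT3B tops the 3 ESC panels and lies next to last in the fibroblast panel, and TET1, at the locus used, leads the green TET points in the ESC panels and trails them in fibroblasts.

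The comparison of ESC lines with fibroblasts asks how the methylation machinery of a pluripotent cell differs from that of a differentiated cell. The writers with a de novo role and TET1 rose in ESCs: DNMT3B by 8.48, TET1 by 2.65 and DNMT3A by 1.82 on the log2(FPKM + 1) scale. The maintenance pair DNMT1 and UHRF1 was higher by less than 1 on that scale, and TET2 was the only member that was lower in the values as deposited. To be called, a locus needed a limma adjusted p under 0.05 together with a log2 difference of 1 or more in either direction. By that rule 3 of the 8 genes were called higher and 0 lower, where 28.1% and 14.9% of the 18278 loci tested were called in those directions. Leaving aside DNMT3L, whose testing is not independent of its level (below), the other 7 all passed at the adjusted p alone, 6 higher and 1 lower, but so did 87.7% of all loci, 58.3% higher and 29.4% lower. The count of members is therefore close to the background, and the sizes of the differences carry the description. The median difference of those 7 genes was 0.72, beside 0.44 over all loci tested.

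**Figure D2:**
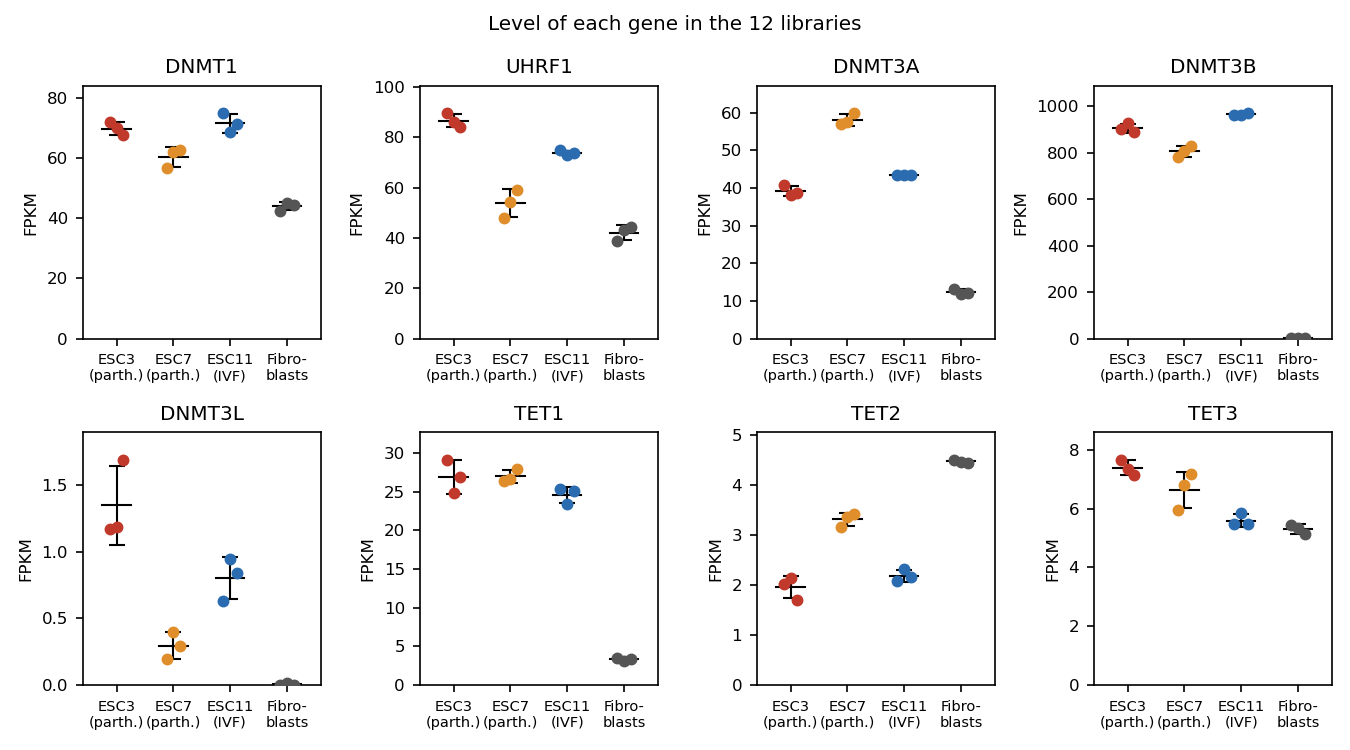
FPKM of each gene in every library, 1 panel per gene with its own axis, for ESC3, ESC7, ESC11 and fibroblasts from left to right, with points for libraries, a bar for the group mean and whiskers for its SD (n = 3). DNMT3B lies at 782 or more in ESC libraries and at 1.66 or less in fibroblasts, while TET2 is highest in fibroblasts.

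DNMT1, the maintenance methyltransferase (ENSSSCG00000013659, Sscrofa10.2 chromosome 2, 69309460 to 69357885, minus strand), had 72.1, 70.1 and 67.6 FPKM for ESC3, 56.6, 62.0 and 62.9 FPKM for ESC7, and 75.1, 68.7 and 71.3 FPKM for ESC11, against 42.5, 45.1 and 44.3 FPKM in fibroblasts. Every ESC library lay above every fibroblast library, with ESC7 the lowest of the lines. DNMT1 averaged 67.4 ± 5.83 FPKM in ESCs and 44.0 ± 1.32 FPKM in fibroblasts (SD, n = 9 and 3). The log2 difference was 0.60 ± 0.04 (SE from limma, adjusted p = 1.12e-07).

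UHRF1, which binds hemimethylated CpG sites and brings DNMT1 to them (ENSSSCG00000013517, chromosome 2, 74678505 to 74712367, minus strand), had 89.6, 86.1 and 84.2 FPKM for ESC3, 48.0, 54.3 and 59.0 FPKM for ESC7, and 74.7, 72.8 and 73.6 FPKM for ESC11, against 38.6, 43.2 and 44.3 FPKM in fibroblasts. The ranges of ESCs and fibroblasts did not overlap, but the lowest ESC7 library stood only slightly above the highest fibroblast library, and ESC3 stood above all others. The ESC mean was 71.4 ± 14.7 FPKM and the fibroblast mean 42.0 ± 3.00 FPKM (SD, n = 9 and 3), a log2 difference of 0.72 ± 0.06 (SE, limma adjusted p = 5.46e-07). Taken by line, UHRF1 rose in ESC3 by 1.03 and so was called there, where 28.6% of loci were called higher. That call rests on a narrow margin: the difference was 0.97 without fibroblast replicate 1, 0.96 with a pseudocount of 5, 0.78 after quantile normalization, 0.57 after median-ratio scaling and 0.53 after scaling to the same sum. UHRF1 was 0.35 higher in ESC7 and 0.80 higher in ESC11, under the minimum for a call in both.

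The summed level of markers of dividing cells moved with the maintenance pair. Of 12 genes listed for S phase and mitosis, 10 were in the table. Their summed FPKM was 1640 to 1736 in ESC3, 1442 to 1510 in ESC7 and 1595 to 1655 in ESC11, against 761 to 814 in fibroblasts. The sum does not speak for each gene: at the limma adjusted p alone 8 were higher in ESCs than in fibroblasts and 2 lower, where 58.3% and 29.4% of loci were. MCM6 was read from an unannotated locus of 335 bp. The order of the summed ranges, ESC3 and ESC11 above ESC7 and ESC7 above fibroblasts, resembles that of DNMT1 and UHRF1. Its part in their differences was not tested.

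DNMT3A, a de novo methyltransferase (locus XLOC_014246, chromosome 3, 120476759 to 120663907, plus strand), had 40.7, 38.1 and 38.7 FPKM for ESC3, 56.9, 57.7 and 59.9 FPKM for ESC7, and 43.4, 43.5 and 43.6 FPKM for ESC11, against 13.1, 11.9 and 12.2 FPKM in fibroblasts. All ESC libraries lay far above the fibroblasts, and ESC7 lay above the other lines. The means were 46.9 ± 8.70 FPKM in ESCs and 12.4 ± 0.667 FPKM in fibroblasts (SD, n = 9 and 3), a log2 difference of 1.82 ± 0.03 (SE, limma adjusted p = 3.13e-12). Of all loci tested, 19% had a larger absolute difference.

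DNMT3B, the other de novo methyltransferase and a marker of the epiblast in mouse (ENSSSCG00000007252, chromosome 17, 41261580 to 41322909, plus strand), had 903, 927 and 888 FPKM for ESC3, 782, 806 and 829 FPKM for ESC7, and 963, 965 and 971 FPKM for ESC11, against 1.28, 1.54 and 1.66 FPKM in fibroblasts. The groups were separated by more than 2 orders of magnitude. DNMT3B averaged 893 ± 71.9 FPKM in ESCs and 1.49 ± 0.192 FPKM in fibroblasts (SD, n = 9 and 3). The log2 difference was 8.48 ± 0.04 (SE, limma adjusted p = 4.43e-16), and only 0.29% of loci tested had a larger absolute difference.

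DNMT3L, the catalytically inactive partner of the de novo enzymes (ENSSSCG00000028741, chromosome 13, 216997925 to 217011886, minus strand), was low throughout. It had 1.17, 1.18 and 1.69 FPKM for ESC3, 0.194, 0.397 and 0.289 FPKM for ESC7, and 0.633, 0.943 and 0.841 FPKM for ESC11, against 0, 0.0128 and 0 FPKM in fibroblasts. The ranges of the 4 groups did not overlap. DNMT3L met the minimum for testing (3 or more libraries with an FPKM of 1 or more) through the 3 ESC3 libraries alone, so its passing and its difference are not independent. For that reason no p is given for it. The log2 difference of 0.81 ± 0.08 (SE from limma) depends on the pseudocount and becomes 2.92 with a pseudocount of 0.1. No fold is given against a group listed at or near 0.

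Among the erasers, TET1 (ENSSSCG00000030141, on an unplaced scaffold, 245 to 5272, plus strand) had 29.1, 24.8 and 26.9 FPKM for ESC3, 26.4, 26.6 and 28.0 FPKM for ESC7, and 25.3, 23.4 and 25.1 FPKM for ESC11, against 3.53, 3.08 and 3.40 FPKM in fibroblasts. The ESC libraries stood well apart from the fibroblasts. ESC3 overlapped ESC7 and ESC11, and ESC7 lay above ESC11 without overlap. The means were 26.2 ± 1.75 FPKM in ESCs and 3.33 ± 0.232 FPKM in fibroblasts (SD, n = 9 and 3), a log2 difference of 2.65 ± 0.05 (SE, limma adjusted p = 4.34e-12). A larger absolute difference was seen in 10.1% of loci.

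The other 2 loci that carry the TET1 symbol gave nearly the same contrast. The ratio of ESC to fibroblast means was 7.85 at the locus used, 7.35 at the locus on chromosome 14 (XLOC_007061, 77644247 to 77829431) and 7.42 at a second unplaced scaffold (ENSSSCG00000021080). Summed over the 3 loci, TET1 had 57.7 to 69.0 FPKM in ESC libraries and 7.51 to 9.15 FPKM in fibroblast libraries, which did not overlap. The level of TET1 relative to other genes depends on which locus is read, its contrast between cell types much less. Whether the loci are parts of 1 gene was not tested.

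TET2, an eraser that lacks the CXXC DNA-binding domain of TET1 and TET3 (ENSSSCG00000009157, chromosome 8, 125007939 to 125136835, minus strand), ran the other way. It had 2.01, 2.14 and 1.71 FPKM for ESC3, 3.17, 3.37 and 3.42 FPKM for ESC7, and 2.07, 2.31 and 2.16 FPKM for ESC11, against 4.51, 4.45 and 4.45 FPKM in fibroblasts. Every ESC library was below every fibroblast library, with ESC7 the nearest to them. The means were 2.48 ± 0.647 FPKM in ESCs and 4.47 ± 0.0333 FPKM in fibroblasts (SD, n = 9 and 3), a log2 difference of -0.67 ± 0.05 (SE, limma adjusted p = 2.71e-07).

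TET3, the TET enzyme of the mouse oocyte and zygote (ENSSSCG00000008292, chromosome 3, 72074759 to 72178097, minus strand), differed least. It had 7.67, 7.36 and 7.15 FPKM for ESC3, 5.96, 6.80 and 7.17 FPKM for ESC7, and 5.46, 5.84 and 5.47 FPKM for ESC11, against 5.45, 5.35 and 5.13 FPKM in fibroblasts. ESC3 was highest on average and overlapped ESC7, and the lowest ESC11 library exceeded the highest fibroblast library by a hair. The means were 6.54 ± 0.859 FPKM in ESCs and 5.31 ± 0.167 FPKM in fibroblasts (SD, n = 9 and 3), a log2 difference of 0.25 ± 0.05 (SE, limma adjusted p = 0.000817), smaller in size than that of 85.2% of loci. In ESC11 alone the difference was 0.06 (adjusted p = 0.356).

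**Figure D3:**
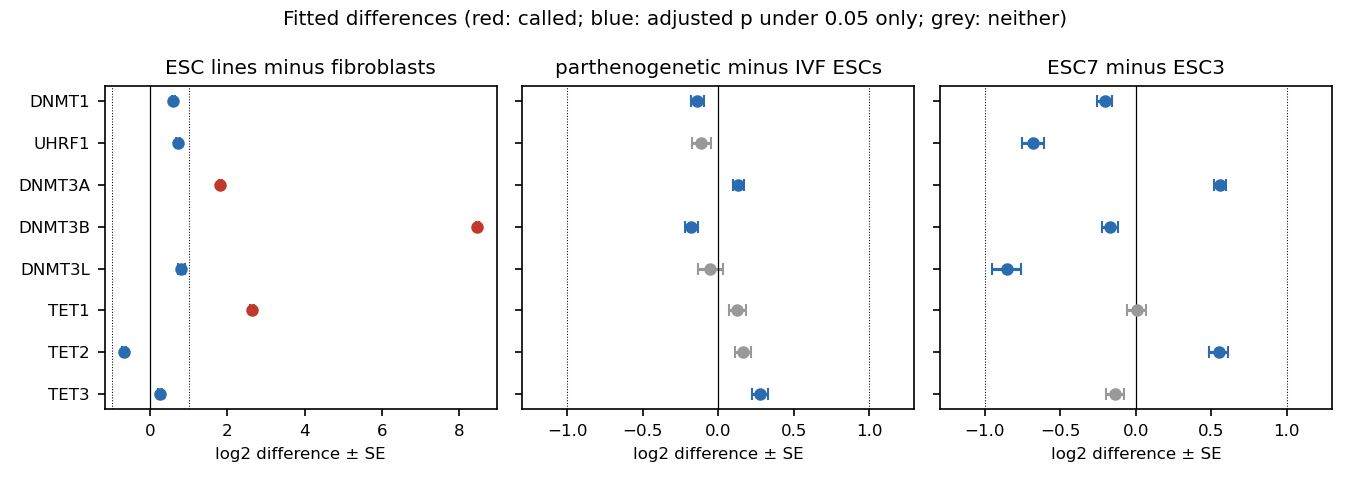
Fitted log2 differences of the 8 genes, ± SE from limma, for ESC lines minus fibroblasts, parthenogenetic minus IVF ESCs, and ESC7 minus ESC3 (the first panel has a wider axis), with dotted lines at -1 and 1. DNMT3B at 8.48, TET1 at 2.65 and DNMT3A at 1.82 are the red, called points, and the other panels hold none.

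The ESC and fibroblast differences depend in part on how libraries are scaled, since the median of all loci was itself 0.44. It was 0.11 after quantile normalization, 0.06 after median-ratio scaling and 0.49 after scaling to the same sum. Over all loci the calls were 5144 higher and 2730 lower as deposited, 3489 higher and 3476 lower after quantile normalization, and 3511 higher and 3754 lower after median-ratio scaling. Relative to the median of all loci, DNMT3B was 8.04 to 8.09, TET1 2.20 to 2.22 and DNMT3A 1.33 to 1.48 higher under the 4 scalings. UHRF1 was 0.22 to 0.39 and DNMT1 0.09 to 0.27 above that median. TET2 was -1.12 to -1.10 and TET3 -0.20 to -0.16 relative to it. TET3 itself changed sign, to -0.05 after quantile normalization and -0.14 after median-ratio scaling. TET2 passed the minimum for a call under those scalings, at -1.01 and -1.04. In ESC7 alone the maintenance pair lay near the median of all loci, UHRF1 at -0.17 to 0.03 and DNMT1 at -0.07 to 0.14 relative to it under the 4 scalings, on the positive side only after quantile normalization. After median-ratio scaling both were below fibroblasts, at -0.13 and -0.02.

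Ratios between paralogs within a library do not depend on a single scaling factor for the library, apart from the pseudocount, but quantile normalization can change them. DNMT3B exceeded DNMT3A by 22.2 to 24.3 times in ESC3, 13.7 to 14.0 times in ESC7 and 22.2 to 22.3 times in ESC11, against a ratio of 0.0976 to 0.136 in fibroblasts. The balance of the de novo enzymes was thus inverted between the cell types. On the log2(FPKM + 1) scale the ratio averaged 4.24 in ESCs and -2.43 in fibroblasts, a difference of 6.66 (exact permutation test, two-sided, n = 9 and 3, p = 0.00909, adjusted p = 0.0327 over 18 tests). That p is the smallest that 9 against 3 libraries can give. DNMT3L relative to DNMT3B was among the 18 tests, but its difference from fibroblasts is not read as a result. DNMT3L was listed at 0 in 2 of 3 fibroblast libraries.

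TET1 exceeded TET2 by 11.6 to 15.7 times in ESC3, 7.90 to 8.34 times in ESC7 and 10.1 to 12.2 times in ESC11, against a ratio of 0.691 to 0.782 in fibroblasts. TET1 exceeded TET3 by 3.36 to 3.80 times in ESC3, 3.90 to 4.43 times in ESC7 and 4.01 to 4.63 times in ESC11, against 0.575 to 0.663 in fibroblasts. At the locus used both ratios crossed 1 between the cell types. With TET1 summed over its 3 loci neither fell below 1 in fibroblasts, while the log2 differences were 3.45 over TET2 and 2.53 over TET3. At the locus used the log2 differences were 3.32 and 2.4, and TET3 over TET2 differed by 0.92, each with the exact permutation p of 0.00909 (adjusted p = 0.0327). UHRF1 over DNMT1 averaged 0.06 in ESCs and -0.07 in fibroblasts on the log2 scale, a difference of 0.12 that did not pass (exact permutation p = 0.391, adjusted p = 0.520).

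As shares of the summed FPKM of DNMT1, DNMT3A and DNMT3B, without DNMT3L, DNMT3B made up 87.1% to 89.6% in ESC libraries and 2.25% to 2.85% in fibroblast libraries. DNMT1 made up 6.32% to 7.10% in ESC libraries and 74.7% to 77.1% in fibroblast libraries. The sum behind the shares was 896 to 1086 FPKM in ESCs and 56.9 to 58.5 FPKM in fibroblasts, so the lower share of DNMT1 in ESCs stood beside a higher level. The summed TET level, with TET1 read at the locus used, was 31.5 to 38.8 FPKM in ESCs and 12.9 to 13.5 FPKM in fibroblasts. Of it TET1 was 72.3% to 77.0% in ESCs and 23.9% to 26.2% in fibroblasts. The fibroblast shares depend on that locus: summed over its loci, TET1 had 7.51 to 9.15 FPKM there, above TET3 and TET2. TET3 was 16.6% to 21.5% in ESCs and 39.5% to 41.5% in fibroblasts, and TET2 was 4.78% to 9.16% in ESCs and 33.4% to 34.6% in fibroblasts.

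**Figure D4:**
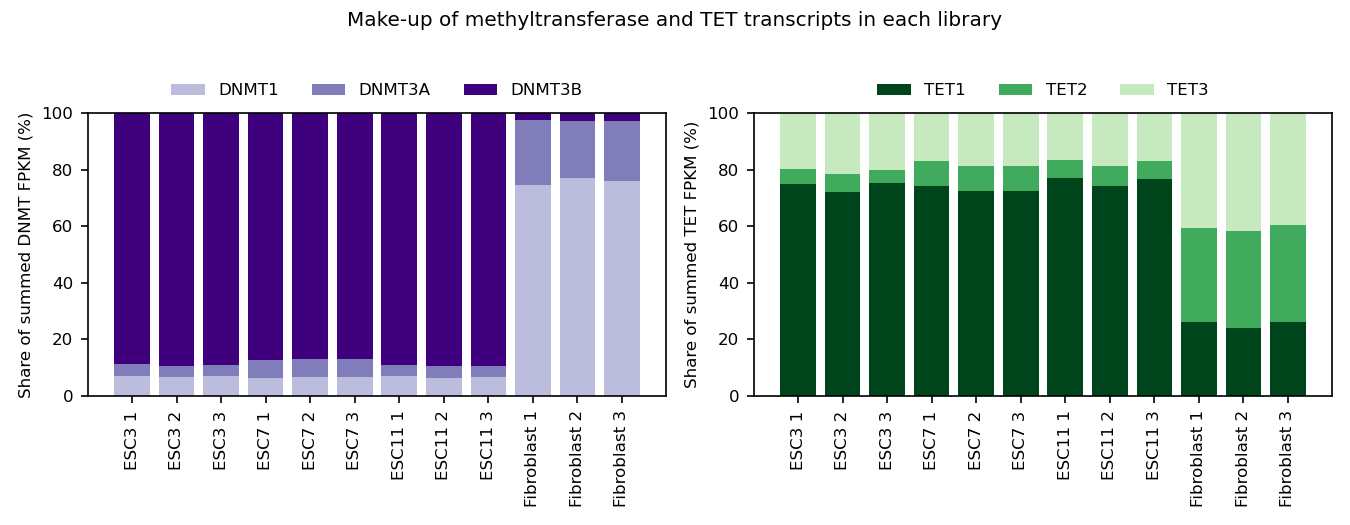
Shares of the summed FPKM of DNMT1, DNMT3A and DNMT3B and of the 3 TET genes, in percent, as 1 stacked bar per library. DNMT3B fills 87.1% to 89.6% of the DNMT bars in ESCs and 2.25% to 2.85% in fibroblasts. TET1, at the locus used, fills 72.3% to 77.0% of the TET bars in ESCs and 23.9% to 26.2% in fibroblasts.

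The 3 comparisons of a single line with fibroblasts share the fibroblast libraries. DNMT3B, TET1 and DNMT3A were called higher in each of them. In ESC3 UHRF1 was called too, making 4 of the 7 members other than DNMT3L, where 44.1% of loci were called. DNMT3L also passed there, but it was tested through those same ESC3 libraries, so its call is not counted. In ESC7 and ESC11 the called members were the first 3, where 43.4% and 42.9% of loci were called.

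Setting parthenogenetic beside IVF ESCs asks whether the machinery differs with the origin of the line. No member was called with limma, where 2.2% of loci were called, and 6 of 8 had an unadjusted p under 0.05, where 32.8% of loci did. At an adjusted p under 0.05 alone, 4 of 8 passed, 2 higher and 2 lower, where 19.7% of loci passed, 12.3% higher and 7.34% lower. Scaling to the same sum moved the median of all loci to -1.03 and turned the sign of DNMT3A, TET1, TET2 and TET3, so the directions given next for DNMT3A and TET3 hold for the other 3 scalings. As deposited, the differences were small: TET3 was 0.28 ± 0.05 higher (adjusted p = 0.00514), DNMT3A 0.13 ± 0.04 higher (adjusted p = 0.0285), DNMT3B -0.18 ± 0.05 (adjusted p = 0.0223) and DNMT1 -0.14 ± 0.04 (adjusted p = 0.0476), each ± SE. The size for DNMT3B depends on the scaling: it was -0.72 after quantile normalization (limma adjusted p = 0.00455).

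By level, TET3 averaged 7.02 ± 0.593 FPKM in parthenogenetic ESCs and 5.59 ± 0.215 FPKM in IVF ESCs (SD, n = 6 and 3), and was higher than in ESC11 in both ESC3 (0.35, adjusted p = 0.003) and ESC7 (0.21, adjusted p = 0.0274). DNMT3B averaged 856 ± 58.2 FPKM in parthenogenetic ESCs and 966 ± 4.30 FPKM in IVF ESCs (SD, n = 6 and 3). Among the members, only these genes had ranges of the groups that did not overlap. The share of all loci without such overlap was not taken. Against ESC11, DNMT3B was -0.26 in ESC7 (adjusted p = 0.00434) and -0.09 in ESC3 (adjusted p = 0.246) as deposited. After quantile normalization it was -0.80 in ESC7 (limma adjusted p = 0.00379) and -0.65 in ESC3 (adjusted p = 0.015), so the difference cannot be assigned to ESC7.

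For 4 members, DNMT3L included, the parthenogenetic lines lay on opposite sides of the IVF line, so their mean describes neither. The share of all loci with that pattern was not taken, so this count is a description only. For DNMT3A and UHRF1 both lines passed at the adjusted p. DNMT3A was -0.15 in ESC3 (adjusted p = 0.0295) and 0.41 in ESC7 (adjusted p = 5.94e-05) relative to ESC11. UHRF1 was 0.23 in ESC3 (adjusted p = 0.0443) and -0.45 in ESC7 (adjusted p = 0.00109). DNMT3L was 0.38 in ESC3 and -0.48 in ESC7, given without a p because it was tested through ESC3 alone. TET2 was -0.11 in ESC3 (adjusted p = 0.24) and 0.44 in ESC7 (adjusted p = 0.000518). Both contrasts use the same ESC11 libraries, and after scaling to the same sum all 4 genes lay below ESC11 in both lines. At the adjusted p alone 23% of loci passed in ESC3 against ESC11 and 30.9% in ESC7 against ESC11, and by the full rule 2.48% and 2.94% were called, with 0 of 8 members called in each. TET1 was 0.13 ± 0.05 (SE) in the pooled comparison and did not pass (adjusted p = 0.137), but summed over its 3 loci it was 0.18 higher (adjusted p = 0.0415). None of the 6 paralog ratios passed after adjustment, although DNMT3B over DNMT3A differed by -0.81 after quantile normalization, and the lowest p was the 0.0476 of TET1 over TET3 (exact permutation, n = 6 and 3, difference -0.15, adjusted p = 0.143, smallest possible p = 0.0238).

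The comparison of ESC7 with ESC3 asks how far lines of the same origin differ. In 4 members, DNMT3L included, the difference exceeded 0.5 in size. The smallest of the 4 was that of TET2, and 14% of all loci had a larger absolute difference. By the full rule 0 of 8 members were called with limma, where 3.38% of loci were called. Of the 7 members other than DNMT3L, 6 had an unadjusted p under 0.05, where 47.6% of loci did. At the adjusted p alone 5 of these 7 passed, 2 higher and 3 lower, where 39.9% of loci passed, 22.9% higher and 17.1% lower.

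DNMT3A was 0.56 ± 0.04 higher in ESC7 than in ESC3 (adjusted p = 4.84e-06) and TET2 0.55 ± 0.06 higher (adjusted p = 7.39e-05). UHRF1 was lower, at -0.68 ± 0.07 (adjusted p = 4.83e-05), with DNMT3L at -0.86 ± 0.10. Since DNMT3L was tested only because it reached the minimum in ESC3, no p is given for it here. DNMT1 at -0.21 ± 0.05 and DNMT3B at -0.17 ± 0.05 passed with smaller differences (adjusted p = 0.00772 and 0.0279). These errors are SE from limma. The libraries of ESC7 and ESC3 did not overlap for these 6 genes, DNMT3L included, and overlapped for TET1 and TET3. The share of all loci without such overlap was not taken, so this count is a description only.

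By level, DNMT3A averaged 58.2 ± 1.57 FPKM in ESC7 and 39.2 ± 1.34 FPKM in ESC3, and UHRF1 averaged 53.8 ± 5.50 FPKM in ESC7 and 86.6 ± 2.74 FPKM in ESC3 (SD, n = 3 each). Of the summed DNMT level, DNMT3A was 6.23% to 6.35% in ESC7 and 3.68% to 4.00% in ESC3. UHRF1 stood at 0.848 to 0.939 times DNMT1 in ESC7 and at 1.23 to 1.24 times DNMT1 in ESC3. The 6 paralog ratios, that of DNMT3L over DNMT3B included, were without overlap between ESC7 and ESC3. Several of them share a gene, and the share of other gene pairs without overlap was not taken, so this too is a description only. The log2 difference of DNMT3B over DNMT3A was -0.73, of UHRF1 over DNMT1 -0.48 and of TET1 over TET2 -0.54. With 3 libraries against 3 the exact permutation p was 0.1 for each of the 6 ratios, which is the smallest that this design can give.

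Scaling to the same sum changed the sign of DNMT1, DNMT3B and TET3 between ESC7 and ESC3, to 0.09, 0.13 and 0.13, while the median of all loci became 0.27. UHRF1, DNMT3L, DNMT3A and TET2 kept their sign under all 4 scalings. The summed FPKM of the fibroblast markers was 23.3 to 28.0 in ESC7 and 19.3 to 36.9 in ESC3, so these overlapped. The summed S phase and mitosis genes did not, as given above, and their part was not tested.

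The partners of the pathway were read from lists, by the count called in ESC lines against fibroblasts and the median difference, to be set beside the 43.1% of loci called and the all-loci median of 0.44. Among 7 partners of maintenance methylation, 3 rose and 0 fell, with a median of 0.79. HELLS, a chromatin remodeller needed for normal DNA methylation in mouse, averaged 127 ± 5.20 FPKM in ESCs and 10.4 ± 0.395 FPKM in fibroblasts (log2 difference 3.49). CDCA7, the activator of HELLS, averaged 80.9 ± 13.9 FPKM in ESCs and 18.6 ± 0.864 FPKM in fibroblasts (2.04). USP7, a deubiquitinase that binds DNMT1 and UHRF1, rose by 1.09 as deposited. UHRF2, the paralog of UHRF1, averaged 69.1 ± 7.34 FPKM in ESCs and 126 ± 3.51 FPKM in fibroblasts, a difference of -0.87 that was under the minimum for a call; it is named beyond the rule, after its value was seen.

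Of 8 methyl-CpG readers 6 were tested, 0 rose and 2 fell, and the median was 0.08. MBD2, which recruits the NuRD complex to methylated DNA, averaged 12.1 ± 0.654 FPKM in ESCs and 70.6 ± 5.86 FPKM in fibroblasts (log2 difference -2.45). ZBTB4, a zinc finger protein that binds methylated CpG, averaged 1.26 ± 0.300 FPKM in ESCs and 9.82 ± 0.205 FPKM in fibroblasts (-2.27). MBD4 was not analysed here.

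Of 12 genes that act with or after the TET enzymes 11 were tested, 6 rose and 1 fell, with a median of 1.01. Among the 11, 1 was listed at 0 in all fibroblast libraries, so it was tested through ESC libraries alone. GADD45G averaged 14.2 ± 3.87 FPKM in ESCs and 2.98 ± 0.574 FPKM in fibroblasts (1.91), while GADD45B, of the same stress-response family, averaged 12.3 ± 1.83 FPKM in ESCs and 41.3 ± 2.64 FPKM in fibroblasts (-1.67). IDH1, one source of the 2-oxoglutarate that TET enzymes consume, averaged 140 ± 23.9 FPKM in ESCs and 50.6 ± 2.15 FPKM in fibroblasts (1.43). TDG, the glycosylase that cuts out oxidised methylcytosine, rose by 1.04, with 32.8 ± 3.49 FPKM in ESCs and 15.4 ± 0.323 FPKM in fibroblasts; it too is named after its value was seen.

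Of 10 genes that direct methylation or protect from it 7 were tested, 4 rose and 0 fell, with a median of 1.01. PRDM14, a repressor of the de novo enzymes in mouse naive cells, averaged 40.0 ± 9.31 FPKM in ESCs and was listed at 0 in all fibroblast libraries. DPPA3, which protects the maternal genome from demethylation in the mouse zygote, averaged 2.13 ± 0.673 FPKM in ESCs and was likewise listed at 0 in fibroblasts. PRDM14 and DPPA3 thus met the minimum for testing through ESC libraries alone. Their rise is not independent of their being tested, and the count and median of this list include them. EHMT2, a histone H3 lysine 9 methyltransferase, averaged 55.2 ± 4.29 FPKM in ESCs and 12.9 ± 0.674 FPKM in fibroblasts (2.01). TRIM28 and EHMT1 were not analysed here.

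Of 8 genes that supply the methyl donor 7 were tested, 2 rose and 0 fell, with a median of 0.92. AHCY, which clears the S-adenosylhomocysteine left by methyl transfer, averaged 596 ± 47.0 FPKM in ESCs and 84.2 ± 4.89 FPKM in fibroblasts (2.80). MTR, methionine synthase, averaged 9.42 ± 0.967 FPKM in ESCs and 2.45 ± 0.162 FPKM in fibroblasts (1.59). The S phase and mitosis list had 10 tested genes, of which 8 rose and 0 fell, with a median of 1.22, led by CCNE1 (2.28), MCM2 (2.15) and MCM3 (1.32).

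Germline genes whose promoters are silenced by methylation in mouse somatic cells were nearly silent in both cell types. Their summed FPKM, over 10 genes, was 2.08 to 3.94 in ESCs and 0.816 to 1.09 in fibroblasts. Only TDRKH met the minimum for testing, through ESC libraries alone. It had 1.09 ± 0.172 FPKM in ESCs and 0.230 ± 0.0542 FPKM in fibroblasts, and it was not called (0.76).

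Counts in these lists moved with the scaling, as the median of all loci did. After median-ratio scaling 2 maintenance partners rose and 1 fell, 2 demethylation partners rose and 2 fell, 3 targeting and protection genes rose, and 2 S phase and mitosis genes rose. The methyl-CpG readers and the methyl donor genes kept the same counts under all 4 scalings.

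**Figure D5:**
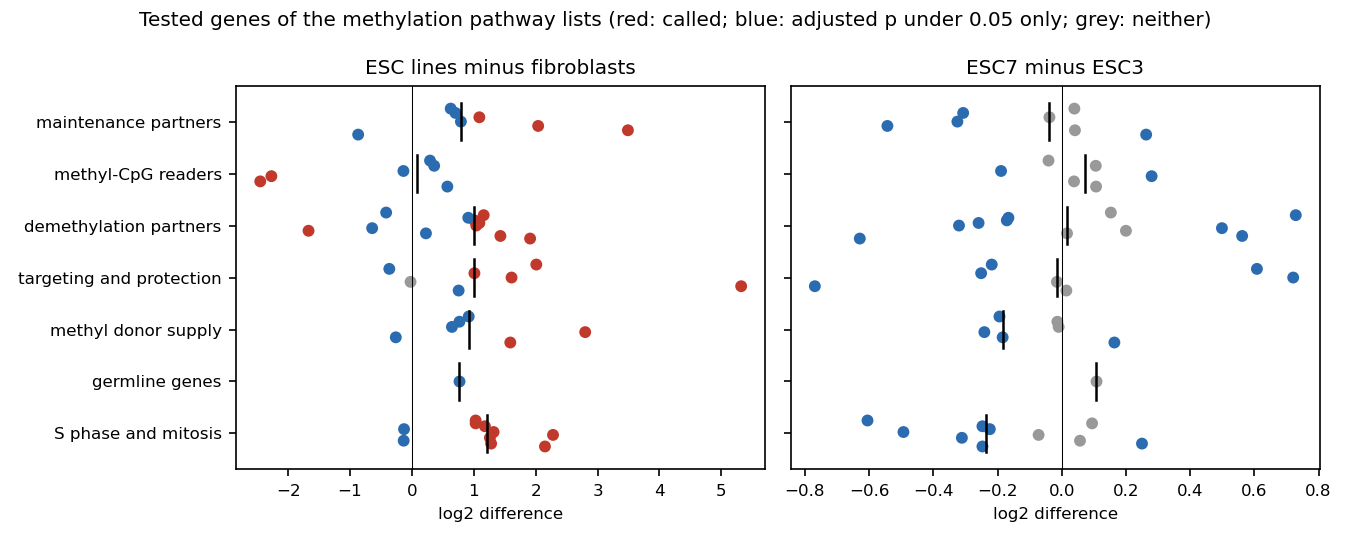
Log2 difference of each tested gene of the lists, 1 point per gene, for ESC lines minus fibroblasts on the left and ESC7 minus ESC3 on the right, each panel with its own axis and with a short line at the median of each list. SHMT1, read from an unannotated locus of 522 bp and given with an SE of 3.22, is counted in its list's median but not drawn; in the left panel MBD2 (-2.45) and ZBTB4 (-2.27) lie lowest and PRDM14 (5.32) highest, and the right panel holds no called gene.

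In the values as deposited no gene of these lists was called with limma between ESC lines, either between origins or between ESC7 and ESC3, where 2.2% and 3.38% of loci were called. Scaling to the same sum moved the median of all loci to -1.03 between origins, and 9937 of the 18278 loci tested were then called lower. Beside that background, 7 of 7 maintenance partners, 7 of 11 demethylation partners and 9 of 10 S phase and mitosis genes were called lower there. So were 3 of 6 readers, 5 of 7 targeting and protection genes and 4 of 7 methyl donor genes. With so many loci called, these counts are not read as a result about the lists. At the adjusted p alone, the S phase and mitosis list had 1 of 10 genes higher and 6 lower in ESC7 than in ESC3, where 22.9% of loci were higher and 17.1% lower, with a median of -0.24 beside 0.02 over all loci. Its largest differences were MCM5 at -0.61 and MCM3 at -0.49, with CDK1 at 0.25 the gene that was higher. The maintenance partners had 1 higher and 3 lower, CDCA7 at -0.54 the largest. After scaling to the same sum 4 S phase and mitosis genes changed sign, and the median of the list was 0.06 beside 0.27 over all loci. PRDM14 was lower in ESC7, at -0.77, with 28.4 FPKM in ESC7 and 49.1 FPKM in ESC3, while DPPA3 was 0.72 and KDM1B, a histone demethylase needed for maternal imprints in mouse oocytes, 0.61 higher. These genes are named after their values were seen.

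The genes whose levels ran most like the members were listed as a description, over 8292 annotated loci with a mean FPKM of at least 5. Across 12 libraries such a correlation mostly reflects the gap between ESCs and fibroblasts. DNMT3B was most like FOXH1 (Pearson r = 0.9998), ESRP1 (0.9998) and LIN28A (0.9997). TET1 was most like CCBL1 (0.9991), USP44 (0.999) and KIAA1551 (0.9989), and TET2 most like BACE1 (0.9905), FAM214B (0.9887) and MOV10 (0.9867). DNMT3L was most like PRKRIR (0.9752), CA5B (0.9688) and DDX3X (0.9676), and TET3 most like ZDHHC15 (0.9495), OGDH (0.9372) and HIPK2 (0.9357).

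Across the 9 ESC libraries, which fall into 3 lines, other genes led. DNMT3B was most like IGF2BP1 (0.9956), ABCC3 (0.9903) and RRP7A (0.9887), and DNMT3L most like CEP78 (0.9888), CCDC47 (0.9758) and NELL2 (0.9755). TET2 was most like BAG3 (0.9894), EFNB2 (0.9848) and EPS8L1 (0.9842). EFNB2, for example, averaged 15.2 FPKM in ESC3, 27.7 in ESC7 and 17.1 in ESC11, the same order by line as TET2. TET3 was most like PRRC2B (0.9784), RC3H1 (0.976) and MAP3K9 (0.9724). TET1, which differed little between lines, had lower values, with TM2D2 (0.935), HDAC5 (0.93) and PRMT3 (0.9139).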

How the data were processed

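PolyA RNA of 12 libraries (TruSeq, 100 bp paired ends, per the labels' protocols) is given in 1 table of 30012 loci; all columns matched a labelled sample. The deposited values are FPKM computed by the authors, per the file headers, with no read counts. STAR 2.4.0b, Cufflinks 2.1.1 and Sscrofa10.2 are named per the submitters' processing notes; the role of each, strandedness and multiple mapping are not given in the sources used here. The 18278 loci that reached an FPKM of 1 in 3 or more libraries were fitted as log2(FPKM + 1), by group means of all libraries, with limma 3.58.1 (trended variances, R 4.3.3), two-sided, with Benjamini-Hochberg adjustment over all tested loci. Fold changes on that scale understate changes of low genes. Paralog ratios were compared by exact permutation over libraries, adjusted over 18 tests. The members and lists were chosen with earlier results of these data known. The text names all members, up to 3 called genes of a list with the largest difference, the 3 most similar loci, and genes marked as named after their values were seen. Listed loci under 300 bp were not used to represent a gene. On simulated libraries, 96% of 200 loci moved by at least 1.5 in size, up or down, in the ESC and fibroblast comparison were recovered. These loci had a mean log2(FPKM + 1) above 3, so recovery of low genes such as DNMT3L and TET2 was not examined. Same-numbered replicates did not deviate together, so they were not paired. Alternatives were other pseudocounts, filters, scalings, a replicate term, fewer libraries and summed loci; a restriction to Ensembl loci and long loci (1 kb or more) was chosen after seeing the data. Tables and plots used Python 3.11.15, pandas 2.3.3, numpy 2.4.6 and matplotlib 3.10.9.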

Additional observations from a re-analysis of the deposited data

Results flagged for a closer look

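For 5 of the 7 members other than DNMT3L the effect against fibroblasts differed between ESC7 and ESC3. This was read from the limma contrast of ESC7 with ESC3 itself, at an adjusted p under 0.05. At that threshold, 39.9% of all loci tested differed between these lines. The difference on the log2(FPKM + 1) scale was -0.683 for UHRF1, -0.207 for DNMT1, -0.169 for DNMT3B, 0.559 for DNMT3A and 0.549 for TET2. DNMT3L, at -0.857, was tested only because it reached the minimum in ESC3, so its difference is a description and is not counted. Single libraries were not screened for outlying values, since groups of 3 are too small.

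The TET1 loci outside the comparisons also carried signal in ESCs. XLOC_007061 averaged 17.2 FPKM and ENSSSCG00000021080 averaged 20.5 FPKM over the ESC libraries, above their fibroblast levels.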

How the results depend on the processing

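Of the counts of called members, 80 stayed within 1.5 times and 8 moved. Scaling to the same sum gave 5 called between parthenogenetic and IVF ESCs, 6 in ESC11 against fibroblasts, 6 in ESC3 against ESC11 and 3 in ESC7 against ESC11. Of the 18278 loci tested, 10041, 11853, 12506 and 6151 were called in these comparisons under that scaling. The all-loci median under it was -1.03 between origins. A pseudocount of 0.1 gave 1 in ESC7 against ESC3, 5 in ESC11 against fibroblasts and 1 in ESC7 against ESC11, where 1148, 9327 and 904 loci were called. With a pseudocount of 5 there were 3 in ESC3 against fibroblasts, where 4714 loci were called. Leaving out 1 library gave 4 to 5 called in ESC3 against fibroblasts and changed no other count. These counts include DNMT3L wherever it was tested, which was through ESC3 alone.

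Signs that reversed, mostly of small differences, were these. With quantile normalization and median-ratio scaling, TET3 was -0.050 and -0.14 in ESC lines, -0.094 and -0.14 in ESC7, and -0.21 and -0.30 in ESC11, against fibroblasts, and TET1 was -0.019 and -0.0099 in ESC7 against ESC3. Median-ratio scaling put DNMT1 at -0.020 and UHRF1 at -0.13 in ESC7 against fibroblasts. Quantile normalization put DNMT3L at 0.0011 between origins. Scaling to the same sum gave -1.04 for DNMT3A, -1.03 for TET1, -0.70 for TET2 and -0.77 for TET3 between origins; 0.088 for DNMT1, 0.13 for DNMT3B and 0.13 for TET3 in ESC7 against ESC3; -0.031 for TET3 in ESC3 against fibroblasts; -0.33 for DNMT3L, -1.10 for UHRF1, -1.18 for TET1 and -0.83 for TET3 in ESC3 against ESC11; and -0.61 for DNMT3A, -0.88 for TET1, -0.34 for TET2 and -0.71 for TET3 in ESC7 against ESC11. The summed FPKM was 2.38e+06 to 3.74e+06 in ESC11 libraries and 4.96e+06 to 7.65e+06 in those of ESC3 and ESC7. Loci under 300 bp held 54.8% to 60.7% of it in ESC11 and 70.7% to 75.5% in ESC3 and ESC7. The cause of the reversals was not tested. DNMT3B between origins was -0.72 after quantile normalization. Leaving out 1 library gave -0.12 to 0.0025 for DNMT3L between origins and -0.051 to 0.062 for TET1 in ESC7 against ESC3.

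Same-numbered replicates correlated at -0.09 to 0.0867 in their deviations, so the numbers pair nothing. With a replicate block no member was called or lost. For the ratios in ESCs against fibroblasts (6.66, -7.68, 3.32, 2.4 and 0.92) the block leaves too few permutations to pass (adjusted p = 0.113), and so does a left-out fibroblast library by its smaller sample. The value for DNMT3L over DNMT3B, -7.68, mostly restates the difference of DNMT3B itself (8.48), since DNMT3L was low in all groups. It is not read as a separate result. Without 1 library their ranges were 6.56 to 6.72, -7.75 to -7.62, 3.27 to 3.36, 2.35 to 2.43 and 0.864 to 0.970. Between origins, DNMT3L over DNMT3B was -0.0946 with a pseudocount of 0.1, TET1 over TET2 was 0.028 with a pseudocount of 5 and 0.016 with summed loci, and TET3 over TET2 was -0.0663 after scaling to the same sum. Without 1 library UHRF1 over DNMT1 was -0.0216 to 0.0873 and TET1 over TET2 -0.117 to 0.0239. FPKM gives no depth, so the counting error of low values such as those of DNMT3L cannot be estimated.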
